A study of Lupinus micranthus with 18 samples.

Results

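The comparison described here set leaves of Lupinus micranthus seedlings grown from America seeds and held under polyethylene glycol (PEG) drought for 72 h against leaves of untreated seedlings from the same seed origin. Its members are 6 of the 18 libraries of the series, 3 for each group, defined by their labels. The other 12 libraries are America leaves after 24 h of PEG and the 3 matching groups from Iceland seeds. The labels give no genotype, age, PEG concentration or pooling, and no hours for untreated seedlings, so an effect of PEG and one of age or harvest time cannot be told apart. The replicates may or may not be separate plants, as the labels do not say, so the spread behind each p-value may be technical.

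PEG is an osmolyte that lowers the water potential around roots without entering the cells in quantity, and so imitates dry soil. In model plants such as Arabidopsis, water shortage raises the hormone abscisic acid, which closes stomata and drives transcription of protective genes, among them those for dehydrins, other late embryogenesis abundant proteins and enzymes that make compatible solutes. Leaf transcripts for photosynthesis and growth commonly decline under such stress. The deposited table pairs its unigenes, the assembled transcript units, with no gene names, so none of these classes could be located in it, and the labelled tissue could not be checked against marker genes. The results are therefore given for the transcript pool as a whole, for groups of unigenes defined by level, length or size of change, and for 4 identifiers chosen by a rule.

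The 6 libraries held 10413491 to 12605500 counts each. Of 81470 unigenes in the table, 17385 had 0 counts in all 6, and 30895 passed the filter on low counts. A count of 0 allows up to 3 counts, which is 0.223 to 0.315 CPM in 1 of these libraries, for counting error alone. CPM here are counts brought to a common library size after scaling by the trimmed mean of M-values (TMM). The median standard deviation of log2(CPM + 1) over the 3 replicates was 0.245 in untreated leaves and 0.207 at 72 h, and it was larger among the untreated libraries for 57.8% of unigenes. Among the Iceland libraries used below for comparison, untreated replicate 3 stood apart, with correlations of 0.933 and 0.921 to its fellow replicates, which correlated at 0.978.

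After 72 h of PEG the leaf transcript pool was spread over more unigenes. Taken from the most counted unigene down, 50% of all counts were held by 571, 546 and 520 unigenes in untreated replicates 1, 2 and 3. At 72 h it took 1213, 1179 and 1109 unigenes. The groups did not overlap: the mean was 546 ± 25.5 (SD, n = 3) untreated and 1167 ± 53.0 at 72 h, a difference of 621 unigenes (exact permutation test, two-sided, p = 0.1, the smallest that 3 against 3 can give). In bulk leaf RNA, fewer cells of a type and less RNA per cell cannot be told apart. In the 24 h libraries the number was 964, 1016 and 1122, so that replicate 3 at 24 h lay within the range of the 72 h libraries.

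The same shift was seen at the top of the pool and was small at its tail. The first 25% of counts lay in 52 to 57 unigenes of untreated leaves and in 150 to 190 at 72 h. The share of counts in the 100 most counted unigenes of each library was 31.6% ± 0.538 (SD, n = 3) untreated and 19.5% ± 1.32 at 72 h. To reach 90% of counts took 8023 ± 22.1 unigenes untreated and 9214 ± 83.2 at 72 h. When abundance was taken as FPKM, which divides by unigene length, 442 ± 29.5 and 1046 ± 55.9 unigenes held 50% of the total.

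**Figure D1:**
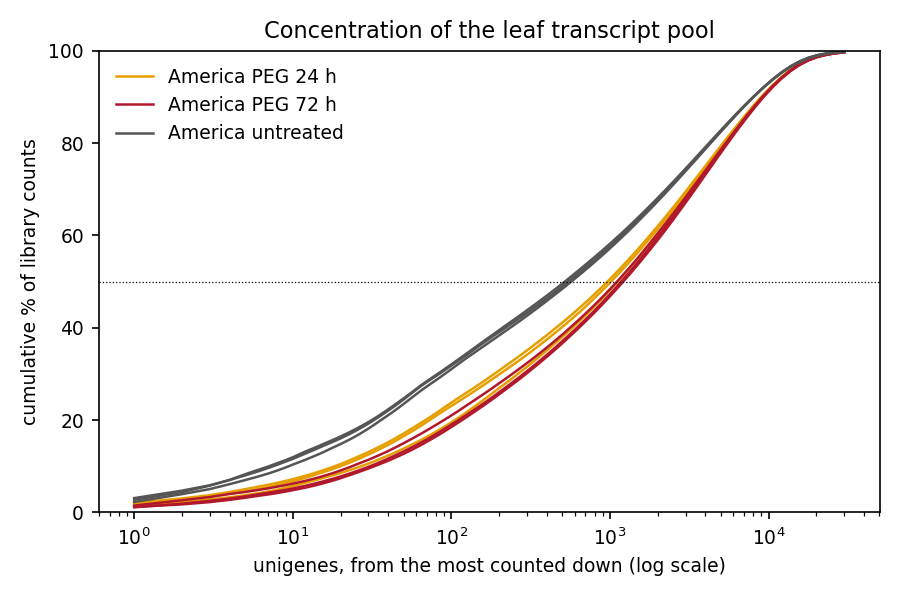
Cumulative share of library counts (y axis, percent) against the number of unigenes taken from the most counted down (x axis, log scale), 1 line for each of 9 America libraries. The dotted line marks 50%, which untreated libraries reach at 520 to 571 unigenes and 72 h libraries at 1109 to 1213.

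The unigenes of highest level in untreated leaves were mostly lower at 72 h. To keep the choice of unigenes apart from the America libraries, the 100 of highest mean FPKM were taken from untreated Iceland leaves. These 100 held 27.9%, 29.5% and 29.6% of counts in untreated America replicates 1, 2 and 3, and 12.8%, 13.1% and 16.2% at 72 h. In the America comparison 74 of them fell, against 18.0% of all tested unigenes, and 22 did not pass. Unigenes of high level passed more often, and 27.8% fell in the highest of 4 equal classes by mean FPKM over all 18 libraries. The median log2 fold change of the 100 was -1.57 against 0.00 over all tested. Chosen without Iceland untreated replicate 3, 80 of 100 fell. Of the 1000 of highest level in untreated Iceland leaves, 599 fell, 92 rose and 309 did not pass in America.

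Unigenes of highest level in Iceland leaves at 72 h, in contrast, moved both ways in America. Of the 100 highest, 36 rose and 32 fell (median log2 fold change 0.23), and of the 1000 highest, 424 rose and 243 fell (median 0.38). Over all tested unigenes 18.4% were higher and 18.0% lower. In the highest of the 4 classes by mean FPKM, 32.3% were higher and 27.8% lower, near the shares of the 100. Within America itself, the lists of the 100 highest unigenes of untreated and 72 h leaves shared 58 members, and the lists of 1000 shared 598. These lists were drawn from the libraries compared and are given as a description.

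Changes extended over a large part of the transcriptome. By edgeR's quasi-likelihood test with Benjamini-Hochberg adjustment at 0.05, 5674 unigenes were higher at 72 h (18.4% of those tested) and 5558 lower (18.0%), together 36.4%. The median change was 2.51-fold among those that rose (middle range of log2 fold changes 0.80 to 2.41) and 2.62-fold among those that fell (-2.14 to -0.90). In 10932 of the 11232 called unigenes the 3 treated libraries lay outside the range of the 3 untreated ones, and among all tested unigenes this held for 50.4% (26.2% higher and 24.2% lower). A further 4650 unigenes did not overlap between groups and yet did not pass. The TMM factors were 0.878 to 0.909 in untreated libraries and 1.09 to 1.11 at 72 h. Scaled by library totals alone, the median of all unigenes moved from 0.00 to 0.30 on the log2 scale and the share of calls that were higher went from 50.5% to 67.9%, so directions here are relative to the middle of the tested unigenes.

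The balance between rises and falls changed with the size of the change. Among called unigenes, 2061 rose and 1712 fell by less than 2-fold, whereas 1797 rose and 2272 fell by 2- to 4-fold and 805 and 990 by 4- to 8-fold. Beyond 8-fold rises were more numerous, with 453 against 355 at 8- to 16-fold and 558 against 229 at 16-fold or more. Rises and falls of 4-fold or more made up 5.88% and 5.09% of tested unigenes. The unigenes that rose 16-fold or more stood at a median of 0.0699 CPM untreated and 3.73 CPM at 72 h. Those that fell 16-fold or more went from a median of 5.34 to 0.130 CPM. Levels this near the limit of 3 counts make single folds in these classes imprecise.

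**Figure D2:**
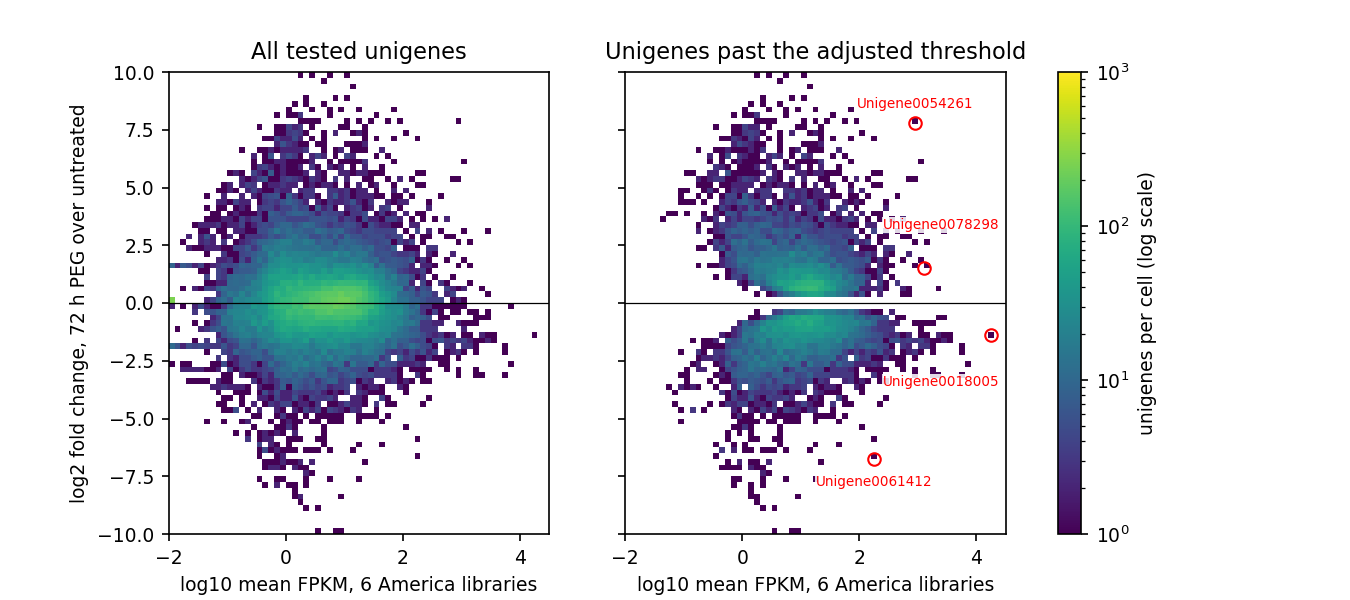
Log2 fold change of 72 h PEG over untreated America leaves (y axis) against log10 of the mean FPKM over the 6 libraries (x axis), as unigenes per cell on a log colour scale, for all 30895 tested unigenes (left) and the 11232 past the threshold (right). Values beyond 10 on the log2 scale or under 0.01 FPKM are drawn at the edge; red circles mark the 4 unigenes chosen by rule, and the median over all tested unigenes is 0.00.

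Against the untreated mean of log2(CPM + 1), the median over the unigenes that rose was 1.09, 1.05 and 0.96 in the 72 h replicates 1, 2 and 3, and the median over those that fell was -1.17, -1.17 and -1.04. Replicate 3 at 72 h was thus the mildest of the 3 in both directions. At 24 h the medians over the same unigenes were 0.73, 0.72 and 0.94 and -0.88, -0.82 and -1.08. Both times are set against the same untreated libraries and the unigenes were chosen on the 72 h values, so the 2 series are given side by side only. By size class, unigenes that rose 16-fold or more at 72 h had a median log2 fold change of 5.29 at 72 h and 4.66 at 24 h, and those that fell as far had -4.65 and -3.61.

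Some unigenes had no counts at all in 1 of the groups. Taking those with at least 10 counts in each library of the other group, 63 unigenes had 0 counts in the 3 untreated libraries and 12 had 0 counts in the 3 libraries at 72 h. With at least 1 count in each library of the other group the numbers were 1034 and 430. The 63 reached a mean of 0.864 to 20.5 CPM at 72 h, which is at least 8.77-fold to at least 208-fold above what 3 counts summed across untreated libraries would give. Of these 63, 61 passed the filter, which used all 18 libraries. In the groups compared only the 72 h libraries held counts for them, so how many passed the test was set by the choice and is not counted here. Of the 63, 45 had counts in all 3 libraries at 24 h, 30 also had 0 counts in untreated Iceland leaves and 13 had 0 counts in all 6 untreated and 72 h Iceland libraries. The 12 stood at a mean of 1.32 to 14.2 CPM untreated, and 9 of them also had 0 counts at 24 h. Only 1 of the 12 had 0 counts in Iceland leaves at 72 h. In the Iceland comparison 2 of the 12 fell, against 23.0% of all tested unigenes. Of the 61 tested among the 63, 32 rose there, against 23.4%.

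The 4 unigenes named by the rule had at least 10 counts in each of the 6 libraries, so that their folds do not rest on a limit. Of 8705 unigenes that met the rule's conditions, 4197 were higher and 4508 lower. Unigene0054261 had the largest fold rise. It is 1395 bases long and stood at 12.2, 10.9 and 7.24 CPM in untreated replicates 1, 2 and 3, and at 2387, 2544 and 1889 CPM at 72 h. Its level per length, 6.47 ± 1.71 FPKM (SD, n = 3) untreated, became 1792 ± 292 FPKM, and its place among all unigenes ranked by FPKM went from 11611 to 21. The log2 fold change was 7.81 ± 0.76 SE (edgeR adjusted p = 2.53e-06), or 225-fold. At 24 h it had 1768, 1786 and 1863 CPM, below every 72 h library.

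Unigene0078298, of 2204 bases, gained most in mean CPM. Its untreated libraries had 1249, 1792 and 1144 CPM and its 72 h libraries 4393, 4567 and 3021 CPM, a log2 fold change of 1.52 ± 0.23 SE (edgeR adjusted p = 0.000113). Replicate 3 at 72 h was again the lowest of the treated libraries. It took up 0.125% ± 0.0331 of counts untreated and 0.439% ± 0.0984 at 72 h, and by FPKM its rank went from 115 to 14. At 24 h it stood at 3326, 3623 and 4221 CPM, within the range of the 72 h libraries.

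Unigene0018005, of 1118 bases, lost most in mean CPM. It was the unigene of highest FPKM in untreated and in 72 h leaves alike, and the most counted unigene of each of the 6 libraries. It held 2.26%, 3.10% and 2.75% of all counts in untreated replicates 1, 2 and 3 and 1.195%, 1.11% and 1.49% at 72 h. The log2 fold change was -1.39 ± 0.26 SE (edgeR adjusted p = 0.000652). At 24 h it held 2.09%, 2.00% and 1.62% of counts, between the untreated and the 72 h libraries.

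Unigene0061412, of 1811 bases, had the largest fold drop. It went from 651, 495 and 1022 CPM untreated to 4.402, 6.42 and 9.30 CPM at 72 h. This is a log2 fold change of -6.75 ± 0.90 SE (edgeR adjusted p = 4.003e-05), or 108-fold lower, and its rank by FPKM went from 180 to 16239. Its 24 h libraries had 17.8, 35.6 and 12.01 CPM, all above the 72 h libraries and far below the untreated ones. All 4 named unigenes moved in the same direction in the Iceland comparison, with log2 fold changes of 6.92 ± 0.73 SE (Unigene0054261), 0.93 ± 0.23 (Unigene0078298), -1.03 ± 0.26 (Unigene0018005) and -8.11 ± 0.99 (Unigene0061412), each past the edgeR adjusted threshold. The difference between origins did not pass for any of them (edgeR adjusted p = 0.652, 0.390, 0.683 and 0.597), which does not show that they respond alike. In all 4, Iceland untreated replicate 3 lay nearest to the Iceland 72 h libraries. Replicates 1, 2 and 3 had 6.61, 7.17 and 50.8 CPM for Unigene0054261 and 1365, 1508 and 2251 CPM for Unigene0078298. They had 36188.6, 37351.5 and 18159.4 CPM for Unigene0018005 and 577, 517 and 157 CPM for Unigene0061412. The Iceland folds thus depend in part on that library.

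**Figure D3:**
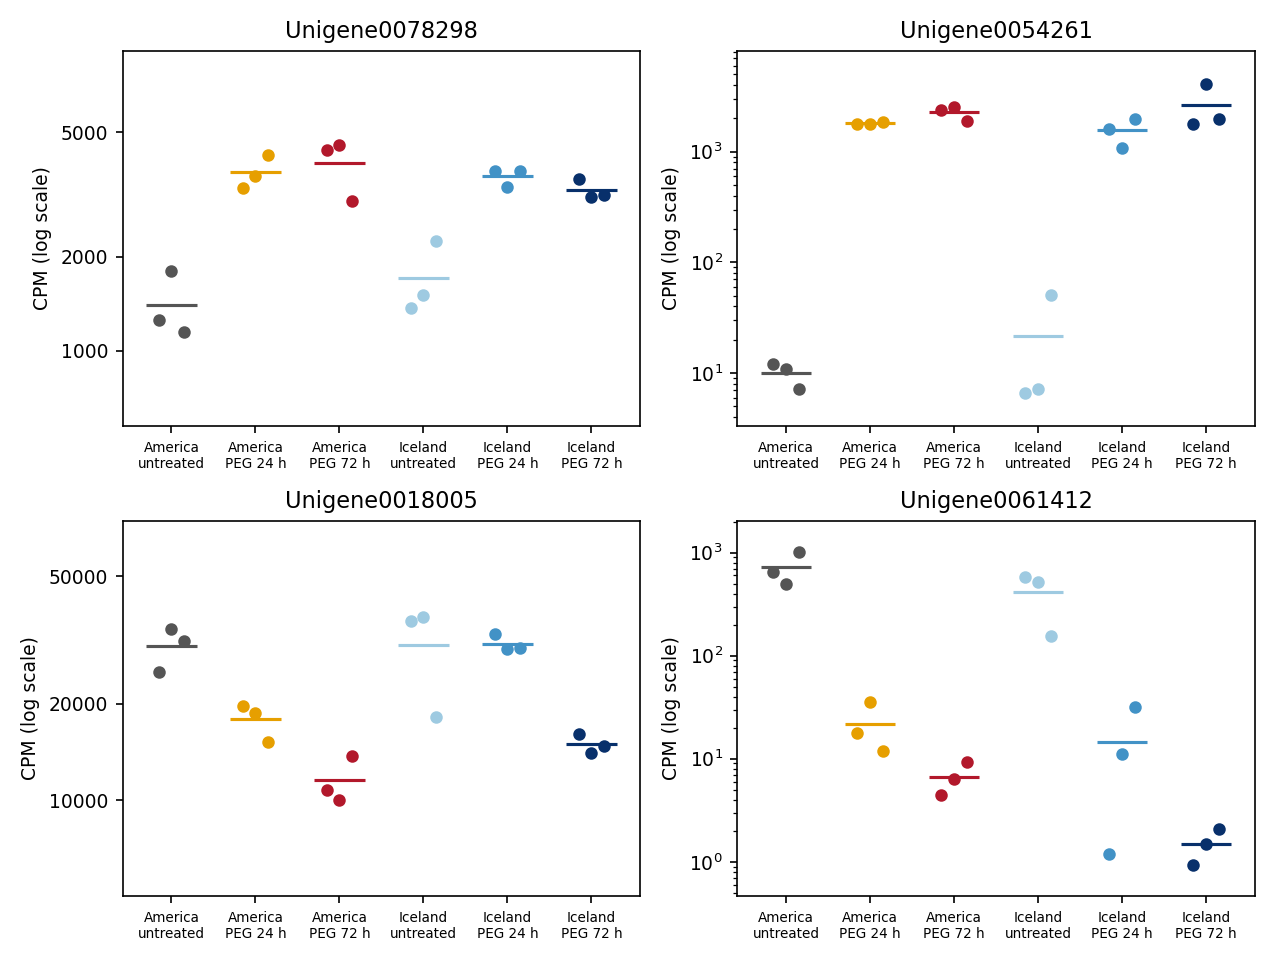
CPM (y axis, log scale) of the 4 unigenes chosen by rule in all 18 libraries, grouped by seed origin and treatment (x axis). Points are libraries in the order of replicates 1, 2 and 3 and bars are group means. Untreated and 72 h America libraries lie apart in each panel because the rule required it.

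Iceland leaves gave the same contrast in other libraries, and 46.4% of tested unigenes passed there. Both contrasts came from 1 fit of all 18 libraries and share its filter and its estimate of the spread. Of the unigenes that rose in America, 70.3% rose in Iceland, where 23.4% of all tested unigenes rose, and 0.546% fell. Of those that fell in America, 80.8% fell in Iceland, where 23.0% of all tested fell, and 1.58% rose. Taken the other way, 55.2% of the unigenes that rose in Iceland rose in America and 63.3% of those that fell there fell in America. The median Iceland log2 fold change was 1.03 over the unigenes higher in America and -1.31 over those lower, against 0.02 over all tested. Without Iceland untreated replicate 3 the shares were 71.4% and 81.2%, against 23.7% and 23.5% of all tested. With each origin fitted alone they were lower, 61.0% and 70.0%, against 22.4% and 22.2% of the unigenes tested in Iceland. Each origin then had its own filter, and America unigenes not tested in Iceland were counted as not passing there.

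The share that passed in Iceland varied little with the size of the rise in America, from 67.9% for rises under 2-fold to 74.8% for rises of 8- to 16-fold. For falls it was 74.8% under 2-fold, 85.3% at 2- to 4-fold and 68.6% at 16-fold or more. Median log2 fold changes of the rising classes were smaller in Iceland than in America, 1.98 against 2.41 at 4- to 8-fold and 4.003 against 5.29 at 16-fold or more. These medians come from classes cut on the America values. For falls the medians were -2.34 in Iceland and -2.39 in America at 4- to 8-fold, and -4.16 and -4.65 at 16-fold or more. Without Iceland untreated replicate 3, the Iceland medians at 16-fold or more were 4.75 for rises and -4.28 for falls. The gap between origins for the largest rises thus depended in part on that library.

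**Figure D4:**
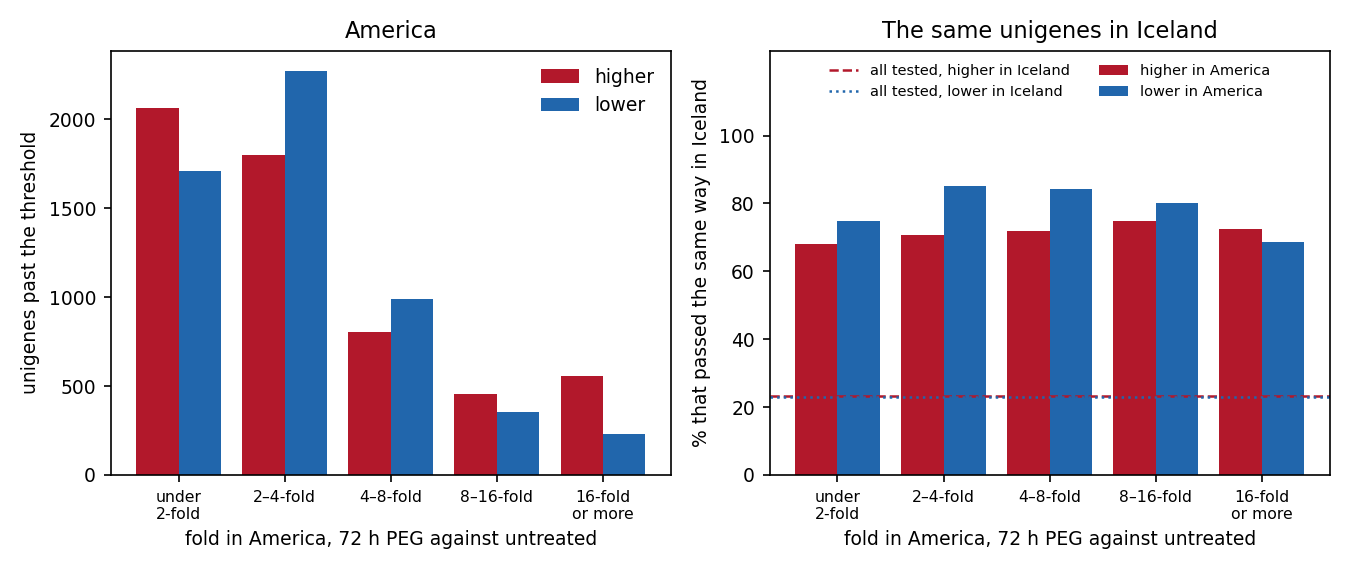
Left, unigenes past the threshold in America (y axis) by size of change (x axis) for rises (red) and falls (blue). Right, the percentage of each class that passed in the same direction in Iceland; horizontal lines give the share of all tested unigenes that passed in Iceland, 23.4% higher and 23.0% lower.

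Lists chosen on Iceland libraries alone were then read in the America libraries. The 5700 unigenes that rose in Iceland (22.4% of those tested there) held 11.8%, 11.8% and 10.4% of counts in untreated America replicates 1, 2 and 3, and 34.1%, 33.9% and 30.9% at 72 h. The 5652 that fell in Iceland (22.2%) held 49.7%, 51.0% and 53.9% untreated and 21.5%, 21.4% and 24.8% at 72 h. In both lists the groups were apart, with 72 h replicate 3 nearest to the untreated libraries. At 24 h the rising list held 25.4%, 25.1% and 33.9% of counts in America leaves, replicate 3 lying within the range of the 72 h libraries. Chosen without Iceland untreated replicate 3, the lists had 7696 and 7567 members (27.2% and 26.8% of those tested) and went from 14.8% ± 1.25 to 40.0% ± 2.34 and from 61.8% ± 2.32 to 30.5% ± 2.40 of America counts (SD, n = 3).

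Some of the unigenes that fell furthest in America passed in the other direction in Iceland. Of the 229 that fell 16-fold or more in America, 25 rose in Iceland, or 10.9%. This share was 1.97% among those that fell 8- to 16-fold and 23.4% among all tested unigenes. The direct test of the difference between origins (edgeR) passed in 3 of these 25, against 0.693% of all tested. The 25 were chosen by their opposite calls in the same fit. Of the 25, 19 had 0 counts in all 3 America libraries at 72 h. The America groups did not overlap in 13 of them, a share near the 50.4% of all tested unigenes and below the 87.3% of all falls of 16-fold or more. Their summed level was 29.9, 51.4 and 266 CPM in untreated America replicates 1, 2 and 3, so it was uneven, and 11 of the 25 had at least 80% of their untreated level in replicate 3. In Iceland the sum was 1.02, 1.06 and 3.31 CPM untreated and 344, 544 and 100.1 CPM at 72 h. Of all 229, 15 had at least 80% of their untreated level in 1 library, 12 of them in replicate 3. Without America untreated replicate 3, 196 of the 229 kept their call, or 85.6%, against 78.7% of all 11232 calls. Smaller falls kept 75.9% (under 2-fold), 86.4% (2- to 4-fold), 87.7% (4- to 8-fold) and 89.9% (8- to 16-fold). These shares are for whole classes and not for the 25. The part of that library in the result was not tested further.

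Tested directly, the 72 h response differed between origins in 214 unigenes, or 0.693% of those tested (edgeR). Of these 58 had risen and 60 had fallen in America and 96 had not passed there. Among all 88 unigenes that fell in America and rose in Iceland, 41 passed this test, and among the 31 with the reverse pattern 14 did. The latter stood at medians of 2.84, 1.97 and 3.04 CPM in untreated America replicates and 8.27, 7.63 and 8.33 CPM at 72 h, against 7.93, 11.3 and 4.81 CPM and 1.44, 2.26 and 2.74 CPM in Iceland. Both sets were chosen by their opposite calls in the same fit. Their shares past this test and these medians follow in part from that choice and are given as a description. The number past this test ranged from 5 to 737 when 1 library was left out. Each of the 12 untreated and 72 h libraries moved it by over 1.5 times when left out, except America untreated replicate 3 (240) and Iceland 72 h replicate 3 (280). Unigenes that did not pass are not shown to respond alike.

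How often a unigene passed depended on its level. In 4 equal classes by mean FPKM over all 18 libraries, 15.2% passed in the lowest class (up to 1.38 FPKM) and 60.1% in the highest (from 13.4 FPKM). The median size of the change, called or not, was 0.91, 0.73, 0.59 and 0.70 on the log2 scale from the lowest class to the highest, and the median count per library was 8.89 in the lowest and 526 in the highest. In the highest class 2495 rose and 2148 fell, and in the lowest 554 and 620. Cut on the 6 America libraries compared, the classes had 2316 and 2348 in the highest and 555 and 438 in the lowest, so the balance of direction by level turned with the libraries that set the classes.

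Length, which the counts and FPKM together imply, also went with direction among the most counted unigenes. At a given count a shorter unigene has a higher FPKM, so length and level by FPKM were not told apart here. In the highest of 4 equal classes by mean count, 36.9% of the longest unigenes (from 2128 bases) rose and 22.1% fell, with a median log2 fold change of 0.20. Among the shortest (up to 821 bases) 24.96% rose and 34.8% fell, with a median of -0.18. The longest unigenes of the class by count just below had 18.6% higher and 23.2% lower, so the excess of rises among long unigenes was seen in the most counted class and not in that one. Iceland leaves had 38.4% and 23.9% for the longest and 25.3% and 40.8% for the shortest. With library totals alone the shortest reversed to 33.0% higher and 25.7% lower in America, while their median, 0.12, stayed below and that of the longest, 0.50, above the median of 0.30 over all unigenes. The mean length per count was 2300, 2246 and 2251 bases in untreated America replicates and 2405, 2441 and 2406 bases at 72 h, and the groups did not overlap (exact permutation test, two-sided, p = 0.1, the smallest possible). The files hold no measure of RNA integrity, whose part in this was not tested.

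**Figure D5:**
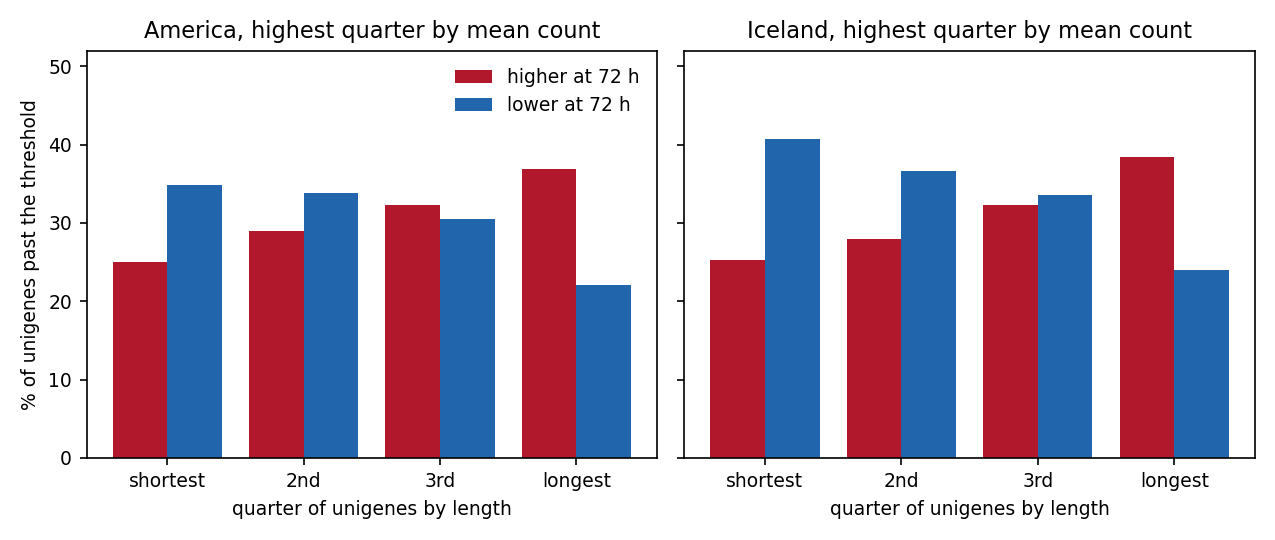
Percentage of unigenes past the threshold at 72 h against untreated (y axis), higher in red and lower in blue, by class of length (x axis), among the highest of 4 classes by mean count in America (left) and Iceland (right). From the shortest to the longest class the share of rises goes from 24.96% to 36.9% and the share of falls from 34.8% to 22.1% in America.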

How the data were processed

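Leaf RNA was sequenced in 18 libraries. Per the submitters' processing notes, bcl2fastq 2.0.1, cutadapt 1.18 and RSEM 1.3.1 were used, with no roles stated. How the unigenes were assembled and whether strand was used: not given in the sources used here. The authors deposited whole-number counts and FPKM per unigene, per the file headers. RSEM estimates need not be whole, so the deposited counts may have been rounded, and reads of near-identical unigenes may have been divided between them. Lengths were computed from the deposited counts and FPKM, and implied lengths differed by at most 0.069% between libraries over 682 unigenes with high counts. Library totals were 9603068 to 12605500 counts.

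Counts were analysed in R 4.3.3. After filterByExpr and TMM scaling, edgeR 4.0.16 fitted 6 group means to the 18 libraries for its quasi-likelihood test, with 12 residual degrees of freedom and a common biological coefficient of variation of 0.345. Benjamini-Hochberg adjustment ran over all 30895 unigenes. CPM uses TMM-scaled totals. Lists from Iceland libraries alone came from a fit of those 6 libraries. Shares and ranks were computed in Python 3.11.15 with scipy 1.17.1. No library was taken as a duplicate, since the chi-square of each replicate pair was 9.76 to 25.2 per unigene, above counting noise.

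The rule for named unigenes took, in each direction, the one with the largest difference in mean CPM and the one with the largest fold among called unigenes with at least 10 counts in each of the 6 libraries and groups that do not overlap. Folds against 0 counts use 3 counts over the group. The members and lists were chosen with earlier results of these data known, and the gene lists and marker names written in the design could not be matched, since the table holds no names. The lists chosen on Iceland, the length classes among well counted unigenes and the counts of unigenes at 0 were added after seeing the data. Alternatives were DESeq2 1.42.0 size factors and Wald test, library totals alone, other filters on low counts, limma-voom (limma 3.58.1), a minimum of 1.5-fold (glmTreat), a fit to the groups compared, leaving out single libraries, and a replicate block.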

Additional observations from a re-analysis of the deposited data

Results flagged for a closer look

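The 72 h response differed between origins in 214 unigenes by a test of the difference itself (edgeR quasi-likelihood, adjusted p under 0.05), 128 more positive and 86 more negative in Iceland. The balance turned to 105 more positive and 135 more negative without America untreated replicate 3, to 10 and 14 without America 72 h replicate 3, and to 3 and 5 without Iceland untreated replicate 2. At an unadjusted p under 0.05 the number was 4979.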

How the results depend on the processing

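The number of unigenes past the threshold in America at 72 h stayed within 1.5 times of 11232 in 14 of 15 alternatives. It was 6215 when a change of over 1.5-fold was tested, and 8817 to 10188 with 1 library left out. Of the 11232 calls, 7353 were kept in every one of the 6 refits that left out 1 library and 10514 by edgeR, limma-voom and DESeq2 together. The Iceland number, 14324, became 9106 under the 1.5-fold test and lay between 11402 and 15610 with 1 library left out. The 214 differences between origins became 746 with no filter, 15 with limma-voom, 1382 with the DESeq2 Wald test, 40 under the 1.5-fold test and 41 in a fit to the groups compared, and 5 to 737 with 1 library left out. The direction held in all 15 alternatives for the 4 named unigenes, with adjusted p of at most 0.00679. Among the longest unigenes of the most counted class, the share that rose was 16.2% to 51.2% over the alternatives and the share that fell 11.9% to 23.7%. The share of America rises that passed in Iceland was 58.5% to 73.6%, and of falls 70.0% to 81.2%. The difference of 621 unigenes that hold 50% of counts was 598 to 650 with 1 library left out, where the smallest exact p is 0.2.

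With the replicate block, which takes the replicate number within origin as a term, 10395 unigenes passed in America, 13289 in Iceland and 4 for the difference. Same-numbered untreated and 72 h America libraries deviated together at correlations of 0.118, 0.011 and 0.117, and 5 of 6 libraries correlated best with their own number. With 3 libraries a group, these values cannot decide whether the samples were paired. The cause of these changes was not tested. Library depth limits what can be said of unigenes near 3 counts.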
